A study of Homo sapiens with 6 samples.

Results

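The mitochondrial protein import machinery was represented by 40 genes of the 11593 gene symbols listed in the 6 libraries, and by 90 of the 28768 listed transcript rows. Members were taken by name: every gene whose symbol begins with TOMM or TIMM, SAMM50, and 14 further symbols for sorting, folding, processing, insertion and proteolysis factors of the same route (OXA1L, PMPCA, PMPCB, GRPEL1, DNLZ, PAM16, CHCHD4, GFER, MTX1, MTX2, LONP1, CLPP, CLPX and YME1L1). No measured value entered that choice. All libraries came from SK-Hep1, a human line that the labels call hepatocellular carcinoma. ChIRP is a pull-down of RNA with biotinylated antisense probes after crosslinking. 3 libraries were made with probes against the long noncoding RNA SNHG10, supplied by RiboBio, and 3 with control probes against the bacterial gene LacZ, supplied by Millipore, so the target and the supplier of the probes cannot be told apart. No treatment is given for either group. The series set out to find messenger RNAs bound by SNHG10. Its labels describe Trizol extraction of total RNA without a retrieval step, so which RNA the libraries hold was not settled from the sources used here. Nothing in the labels says that replicates were separate cultures, so spread and p-values cover differences between these libraries, which may be technical.

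Nearly all mitochondrial proteins are encoded in the nucleus, made in the cytosol and threaded into the organelle as unfolded chains. The TOM complex is the gate of the outer membrane. From there the SAM complex builds barrel proteins into the outer membrane, small TIM chaperones carry hydrophobic proteins across the intermembrane space, TIM22 inserts carrier proteins into the inner membrane, and TIM23 with its chaperone motor pulls presequence proteins into the matrix, where the presequence is cut off. OXA1L inserts proteins, including those made on mitochondrial ribosomes, into the inner membrane from the matrix side. The messenger RNAs of these factors are present in every cell with mitochondria, and some are known to be translated near the mitochondrial surface.

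Promoter windows are shown because the 40 genes are chosen by function and the windows are a feature that the choice did not use. RefSeq windows from 250 bases before to 50 bases after the gene start (GRCh38.p14) matched 34 of the 40 members; CLPP, DNLZ, GRPEL1, TIMM8B, TOMM5 and YME1L1 had no entry. The letters CCGGAAG, a core of sites for ETS factors such as GABPA, were found on either strand in 16 of 34 windows (47.1%), against 20.4% of 9063 listed genes with a window. The windows of TIMM23 and its copy TIMM23B are nearly the same sequence, and both count among the 16. GCGCANGCG, a core of sites for NRF1, a regulator of nuclear genes for mitochondria, was found in 12 of 34 (35.3%), against 15.6%, and 5 windows (14.7% against 3.6%) held both. The other letters searched were near the share of all listed genes: CCAAT in 35.3% against 36.8%, GGGCGG (GC box) in 67.6% against 71.8%, and CACGTG (E box) in 11.8% against 10.6%. GCGCANGCG and CCGGAAG do not share letters in the windows printed here. These shares are descriptions. The libraries measured RNA and no binding at these windows. The 250 bases upstream of OXA1L (chr14:22766438-22766687, plus strand) and of TOMM20 (chr1:235128838-235129087, minus strand) are given 5′ to 3′ in GRCh38.p14, since OXA1L holds the only called transcript and TOMM20, a receptor of the gate, held both cores upstream of its start. Capitals mark the matches.
OXA1L: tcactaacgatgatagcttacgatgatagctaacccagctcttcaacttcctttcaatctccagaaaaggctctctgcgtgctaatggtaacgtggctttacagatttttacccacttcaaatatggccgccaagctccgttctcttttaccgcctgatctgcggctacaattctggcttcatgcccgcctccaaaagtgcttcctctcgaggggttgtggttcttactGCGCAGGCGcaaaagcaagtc
TOMM20: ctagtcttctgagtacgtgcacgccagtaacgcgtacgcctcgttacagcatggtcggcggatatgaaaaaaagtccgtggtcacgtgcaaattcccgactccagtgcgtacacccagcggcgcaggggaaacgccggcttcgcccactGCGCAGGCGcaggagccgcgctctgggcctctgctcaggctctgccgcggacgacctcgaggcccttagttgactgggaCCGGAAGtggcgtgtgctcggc
The GCGCANGCG match lay 21 bases before the start of OXA1L and 101 bases before that of TOMM20, and the CCGGAAG match of TOMM20 lay 22 bases before the start. OXA1L had its CCGGAAG match past the start, outside the bases shown. TIMM29, whose window is not printed, also held both cores upstream of its start.

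Values are FPKM, fragments scaled by transcript length and by the library total, so levels of different genes can be compared per length. Gene values are the sum of the listed transcripts. All 40 genes had at least 1 FPKM in at least 3 libraries and were tested, and 38 had it in all 6. Mean levels over the 6 libraries ran from 2.91 FPKM for TOMM40L to 71.0 FPKM for TOMM7, with a median of 16.5 FPKM, and 30 of the 40 were above 7.80 FPKM, the median of all genes tested. The 40 genes together summed to 767, 763 and 844 FPKM in SNHG10 replicates 1 to 3 and to 819, 795 and 839 FPKM in LacZ replicates 1 to 3. As a share of the library total, SNHG10 replicates 1 to 3 had 0.286%, 0.284% and 0.309% and LacZ replicates 1 to 3 had 0.298%, 0.287% and 0.309%, and the groups overlapped. In bulk libraries such as these, fewer cells carrying an RNA and less of it per cell cannot be told apart.

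**Figure D1:**
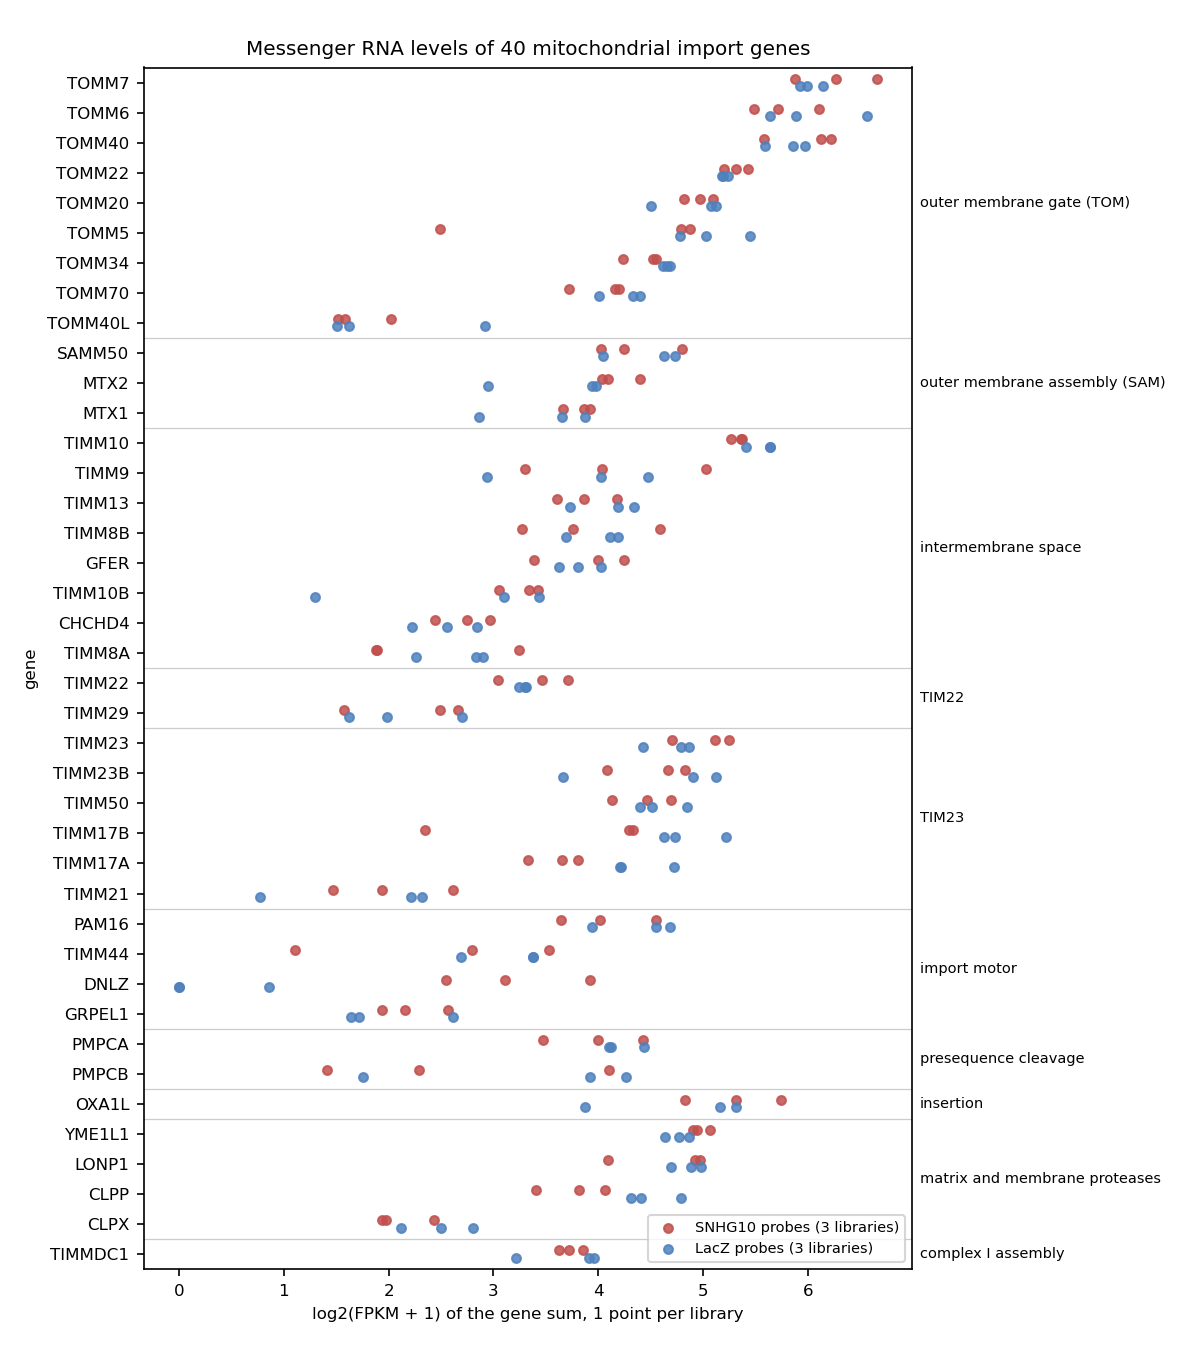
Log2(FPKM + 1) of the 40 import genes, grouped by role, with 1 point for each of the 3 SNHG10 and 3 LacZ libraries. Most members lie between 2.91 FPKM (mean of TOMM40L) and 71.0 FPKM (mean of TOMM7) with mixed points of both probe sets, and DNLZ has LacZ points below 1 FPKM.

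Every difference is the mean of log2(FPKM + 1) with SNHG10 probes less that with LacZ probes, a scale that compresses differences of weakly expressed genes. No import gene passed limma at a Benjamini-Hochberg adjusted p of 0.05 (0 of 40), and none of all 10304 genes tested did (0%). At an unadjusted p under 0.05 there were 3 of 40, DNLZ higher and TIMM17A and CLPP lower, against 5.42% of all genes tested. In 8 of 40 (20.0%) all 3 libraries of a probe set lay above all 3 of the other, against 11.4% of all genes tested. DNLZ, MTX2 and YME1L1 were higher with SNHG10 probes (3 genes, background 4.22%), and CLPP, TIMM17A, TIMM17B, TOMM34 and TIMM10 were lower (5 genes, background 7.21%). DNLZ reached 1 FPKM only in SNHG10 libraries, so its separation was in part a condition of being tested. For a gene with such separation the smallest two-sided exact permutation p with 3 against 3 libraries is 0.1. The members split into 19 positive and 21 negative differences with a median of -0.07, beside 4458 and 5846 and a median of -0.05 over all genes tested. After scaling the libraries by median ratios the members split 20 to 20 with a median of -0.02, TIMM10 no longer separated and TOMM22 did, higher with SNHG10 probes. A difference under 0.5 in size was found for 30 of the 40.

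**Figure D2:**
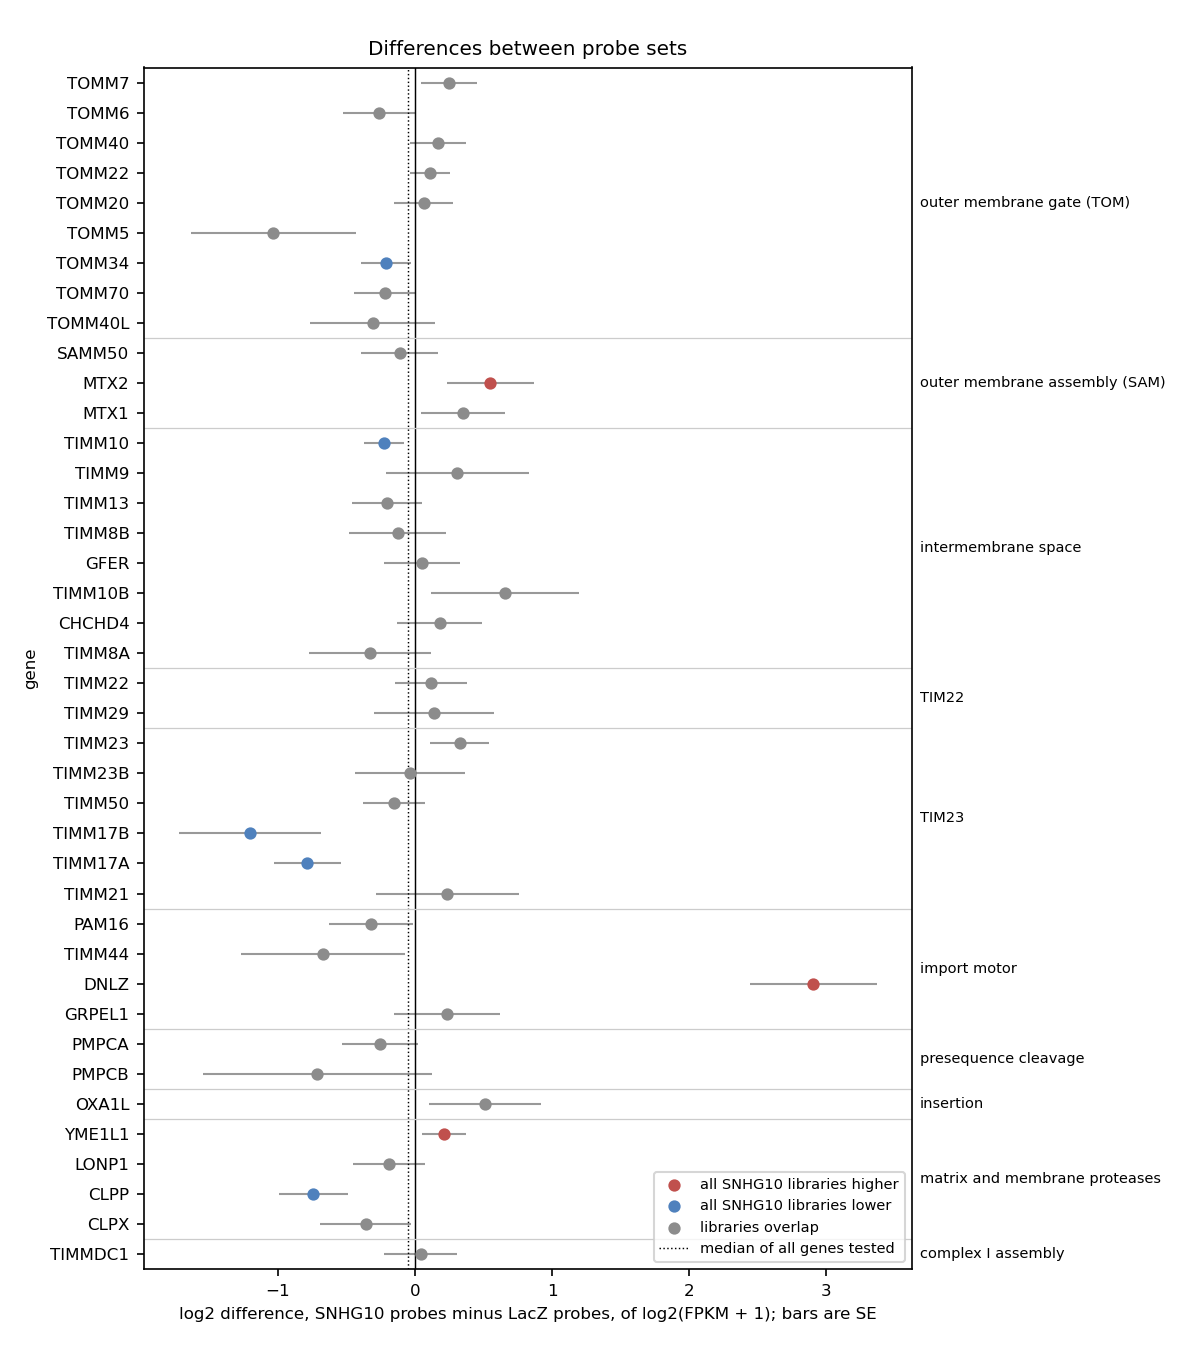
Log2(FPKM + 1) difference, SNHG10 minus LacZ probes, of the 40 import genes with its standard error, grouped by role, and the median of all genes tested as a dotted line. Red and blue points mark genes with all SNHG10 libraries higher or lower and grey points genes whose libraries overlap, and the values run from -1.20 for TIMM17B to 2.91 for DNLZ.

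For the outer membrane gate, the 9 genes with a TOMM symbol were grouped together. None had an unadjusted p under 0.05, 4 differences were positive and 5 negative. TOMM34 alone separated, and it encodes a cytosolic factor, described below. TOMM7, a small subunit that steadies the complex and the most abundant member, had 57.9, 75.9 and 100.1 FPKM with SNHG10 probes and 62.7, 69.8 and 59.9 FPKM with LacZ probes. SNHG10 replicate 3 was highest and SNHG10 replicate 1 lowest, so the groups overlapped (difference 0.25 ± 0.20 SE, limma adjusted p = 0.928). TOMM40, the channel itself, averaged 63.1 ± 14.2 and 55.4 ± 7.54 FPKM (SD, n = 3 each), and TOMM22, the central receptor, 38.9 ± 3.17 and 35.9 ± 0.751 FPKM. The receptors TOMM20 (27.3 to 33.3 and 21.7 to 34.0 FPKM) and TOMM70 (12.2 to 17.4 and 15.1 to 20.1 FPKM) overlapped between probe sets, as did the small subunit TOMM6 (43.8 to 67.9 and 48.9 to 93.5 FPKM). TOMM5, another small subunit, had the largest difference among genes that did not separate, -1.03 ± 0.60 (limma adjusted p = 0.928). SNHG10 replicate 1 had 4.63 FPKM of it, and the other 5 libraries had 26.5 to 42.7 FPKM. Without SNHG10 replicate 1 the difference was -0.25.

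TOMM34, a cytosolic co-chaperone that hands precursors to the mitochondrion, had 22.5, 17.8 and 21.99 FPKM with SNHG10 probes and 23.5, 24.6 and 24.2 FPKM with LacZ probes. All 3 SNHG10 libraries were lower, with 22.5 and 23.5 FPKM as the nearest pair (difference -0.21 ± 0.18, limma adjusted p = 0.928). TOMM40L, a lowly expressed relative of the channel protein, had 2.00, 1.87 and 3.07 FPKM against 2.07, 6.57 and 1.85 FPKM, with LacZ replicate 2 highest and the rest mixed (difference -0.31 ± 0.46, limma adjusted p = 0.944).

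The SAM complex gave positive differences for both metaxins. MTX2, an outer membrane partner of the barrel insertase, had 20.0, 15.4 and 16.03 FPKM with SNHG10 probes and 6.71, 14.4 and 14.7 FPKM with LacZ probes. The groups were separated, with LacZ replicate 1 far below the others (difference 0.55 ± 0.32, limma adjusted p = 0.928), and without that library the difference was 0.21. MTX1, the other metaxin, averaged 13.1 ± 1.29 and 10.5 ± 3.79 FPKM (SD, n = 3 each), also with LacZ replicate 1 lowest at 6.29 FPKM. SAMM50, the barrel insertase and the most abundant of the 3, had 26.9, 17.9 and 15.3 FPKM against 23.7, 25.6 and 15.5 FPKM, and the groups overlapped throughout (difference -0.11 ± 0.28, limma adjusted p = 0.968).

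In the intermembrane space, 8 factors gave 4 positive and 4 negative differences and none with an unadjusted p under 0.05. TIMM10, which forms a chaperone ring with TIMM9 for hydrophobic precursors, had 37.6, 40 and 40.3 FPKM with SNHG10 probes and 48.8, 41.4 and 48.7 FPKM with LacZ probes. All 3 SNHG10 libraries were lower, with 40.3 and 41.4 FPKM as the nearest pair (difference -0.23 ± 0.15, limma adjusted p = 0.928). TIMM9 itself ranged from 8.88 to 31.7 and from 6.68 to 21.2 FPKM and overlapped. TIMM13 (11.2 to 17.2 and 12.2 to 19.3 FPKM), TIMM8A (2.67 to 8.45 and 3.78 to 6.45 FPKM) and TIMM8B (8.68 to 23.0 and 11.9 to 17.3 FPKM), which serve the second chaperone ring, overlapped too. So did CHCHD4, the receptor that oxidises cysteine-rich imports (4.44 to 6.84 and 3.67 to 6.19 FPKM), GFER, the oxidase that recharges it (9.46 to 17.9 and 11.4 to 15.3 FPKM), and TIMM10B, which docks the small TIM proteins on TIM22 (7.30 to 9.74 and 1.47 to 9.84 FPKM).

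For the carrier translocase, TIMM22, its channel subunit, had 7.23, 10.02 and 12.1 FPKM with SNHG10 probes and 8.93, 8.86 and 8.47 FPKM with LacZ probes. The 3 LacZ libraries were nearly equal and lay inside the SNHG10 range (difference 0.12 ± 0.26, limma adjusted p = 0.966). TIMM29, a further subunit, ranged from 1.97 to 5.33 and from 2.07 to 5.50 FPKM.

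Of the presequence translocase, the 2 genes for its TIMM17 subunit, which are alternatives to each other in the complex, were both lower in every SNHG10 library, and neither passed the adjusted test. TIMM17A (chr1:201924619-201939789, hg19, plus strand) had 11.6, 9.04 and 13.0 FPKM with SNHG10 probes and 25.3, 17.5 and 17.6 FPKM with LacZ probes. The highest SNHG10 library was below the lowest LacZ library, the ratio of the means was 0.556, and the difference was -0.79 ± 0.24 (limma adjusted p = 0.885, from 0.837 to 0.922 over the alternatives). TIMM17B (chrX:48750730-48755426, hg19, minus strand) had 19.1, 4.08 and 18.6 FPKM against 36.3, 23.7 and 25.6 FPKM. Here too every SNHG10 library was lower (ratio of means 0.489, difference -1.20 ± 0.52, limma adjusted p = 0.885), and without SNHG10 replicate 2 the difference was -0.55. Summed, the pair gave 30.7, 13.1 and 31.6 FPKM with SNHG10 probes and 61.6, 41.1 and 43.1 FPKM with LacZ probes. For TIMM17B the 2 probe sets drew mainly on different transcript rows, each scaled by its own length. Neither its difference nor the sum of the pair is free of that split. The channel protein TIMM23 (chr10:51592088-51623390, hg19, minus strand), the most abundant subunit, did not follow, with 37.0, 33.6 and 25.0 FPKM against 28.1, 20.6 and 26.6 FPKM. Its groups overlapped through SNHG10 replicate 3 (difference 0.33 ± 0.22, limma adjusted p = 0.928). TIMM23B is a near-identical copy 204 kb away on the same chromosome in hg19, so how the fragments were divided between the copies is uncertain. Their sum, 49.3 to 61.0 and 32.2 to 61.9 FPKM, overlapped as well.

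The receptor TIMM50 overlapped at 16.5 to 25.0 and 20.1 to 27.8 FPKM. TIMM21, which links the translocase to the respiratory chain, had 2.84, 1.76 and 5.11 FPKM with SNHG10 probes and 3.63, 0.712 and 3.997 FPKM with LacZ probes. Replicate 2 was lowest and replicate 3 highest with each probe set, and the groups overlapped (difference 0.24 ± 0.52, limma adjusted p = 0.966).

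**Figure D3:**
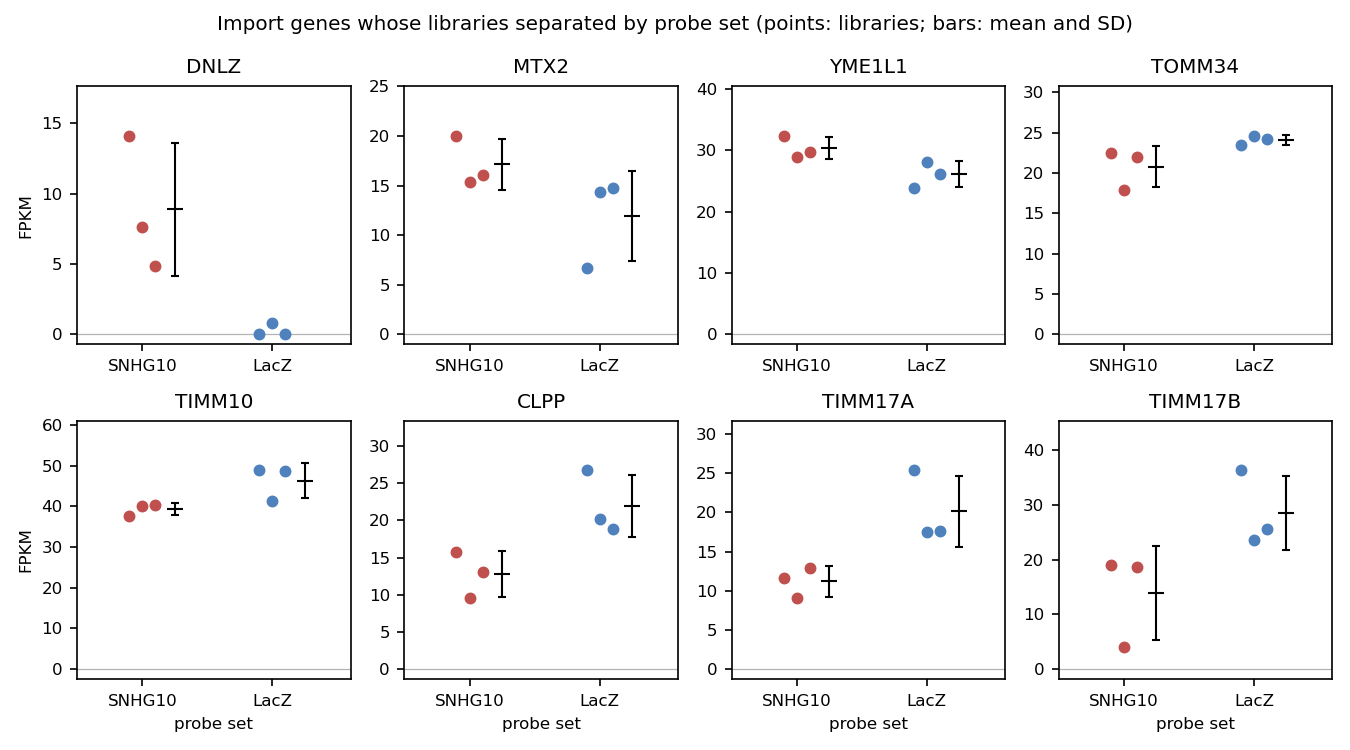
FPKM in each library of the 8 import genes whose SNHG10 and LacZ libraries separated, with the group mean and SD (n = 3 each), left out for the LacZ libraries of DNLZ, of which 2 are listed at 0. DNLZ, MTX2 and YME1L1 are higher with SNHG10 probes, and CLPP, TIMM17A, TIMM17B, TOMM34 and TIMM10 lower.

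The import motor gave the smallest p of the 40 genes. DNLZ (chr9:139256352-139258241, hg19, minus strand) encodes the escort protein that keeps the motor chaperone HSPA9 soluble. It had 14.1, 7.65 and 4.86 FPKM with SNHG10 probes, and it was listed at 0, 0.815 and 0 FPKM with LacZ probes. All 3 SNHG10 libraries were above 1 FPKM and none of the LacZ libraries was, so DNLZ passed the level filter only through the SNHG10 libraries and a listed 0 may be a failed estimate. The difference was 2.91 ± 0.47 (limma adjusted p = 0.415, from 0.268 to 0.886 over the alternatives), and it was 2.54 to 3.23 with any 1 library left out. Its size rests on the pseudocount of 1, being 5.29 with 0.1 and 1.34 with 5. Its partner HSPA9, named here after its values were seen, had 67.1, 89.3 and 79.6 FPKM against 86.1, 87.2 and 74.1 FPKM, and overlapped. PMPCA, the member nearest to DNLZ on chromosome 9 at a distance of 46.8 kb, overlapped between probe sets.

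The most abundant motor gene, PAM16, which tunes HSPA9 at the channel, had 22.4, 15.1 and 11.5 FPKM with SNHG10 probes and 14.4, 24.6 and 22.4 FPKM with LacZ probes, and the groups overlapped (difference -0.32 ± 0.31, limma adjusted p = 0.928). TIMM44, the anchor of the motor, ranged from 1.15 to 10.6 and from 5.48 to 9.41 FPKM. GRPEL1, the nucleotide exchange factor of HSPA9, ranged from 2.84 to 4.93 and from 2.11 to 5.13 FPKM. DNLZ was thus the 1 motor gene of 4 that separated.

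The processing peptidase that removes presequences has a substrate-binding subunit, PMPCA, and a catalytic subunit, PMPCB. PMPCA had 10.1, 20.5 and 15.0 FPKM with SNHG10 probes and 20.6, 16.5 and 16.2 FPKM with LacZ probes (difference -0.26 ± 0.28, limma adjusted p = 0.932). PMPCB had 1.66, 16.2 and 3.89 FPKM against 18.2, 2.38 and 14.1 FPKM. The library with the most PMPCB in each probe set had several times the amount in the library with the least, and both subunits overlapped between the groups.

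Among the proteases, CLPP and YME1L1 separated in opposite directions. CLPP (chr19:6361463-6368919, hg19, plus strand), the peptidase of the matrix ClpXP machine, had 15.8, 9.57 and 13.1 FPKM with SNHG10 probes and 26.7, 20.2 and 18.8 FPKM with LacZ probes. Every SNHG10 library was lower, the ratio of the means was 0.584, and the difference was -0.74 ± 0.25 (limma adjusted p = 0.885, from 0.842 to 0.922 over the alternatives). CLPX, its unfolding partner, ranged from 2.83 to 4.42 and from 3.34 to 5.98 FPKM, and overlapped. YME1L1, an inner membrane protease facing the intermembrane space, had 32.4, 28.9 and 29.8 FPKM against 23.9, 28.2 and 26.2 FPKM. All SNHG10 libraries were higher, with 28.9 and 28.2 FPKM as the nearest pair (difference 0.21 ± 0.16, limma adjusted p = 0.928). LONP1, the main matrix protease, ranged from 16.1 to 30.3 and from 24.9 to 30.5 FPKM. TIMMDC1, which shares the TIMM17 fold and assembles complex I, had 11.4, 13.5 and 12.2 FPKM against 8.31, 14.0 and 14.5 FPKM, and its groups overlapped (difference 0.04 ± 0.27, limma adjusted p = 0.992).

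OXA1L, the inner membrane insertase (chr14:23235731-23242250, hg19, plus strand), had 52.5, 27.3 and 38.9 FPKM with SNHG10 probes and 13.7, 38.8 and 34.9 FPKM with LacZ probes as a gene. SNHG10 replicate 1 was highest, LacZ replicate 1 lowest and the rest mixed, and the difference of 0.51 ± 0.41 did not pass limma (adjusted p = 0.928). It was 0.06 without LacZ replicate 1 and 0.29 without SNHG10 replicate 1. Its transcripts divided differently. OXA1L-203 (chr14:23235911-23240980) had 27.6, 26.4 and 13.3 FPKM in SNHG10 replicates 1 to 3, and each LacZ library listed it at 0. It reached 1 FPKM only in the SNHG10 libraries, so it entered the test only through the group where it was high, and its call depends on that. Of 60 import rows tested it alone passed limma, beside 15 of 16618 rows tested (0.0903%). The difference was 4.48 ± 0.42 (limma adjusted p = 0.0429, from 0.0207 to 0.598 over the alternatives). Its size rests on the pseudocount of 1, being 7.74 with 0.1 and 2.41 with 5, and no fold is given against a group at 0. Leaving out any 1 library took the adjusted p to between 0.11 and 0.2, above the threshold.

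The other OXA1L rows had most of the LacZ signal. OXA1L-201, OXA1L-212 and OXA1L-213 together had 2.76, 0.904 and 23.0 FPKM with SNHG10 probes and 13.7, 38.1 and 34.4 FPKM with LacZ probes. The third SNHG10 library overlapped the LacZ range. OXA1L-202, whose span nearly equals that of OXA1L-203, had 19.2 FPKM in SNHG10 replicate 1 and under 0.01 FPKM in the other 5 libraries. OXA1L-203 and the other rows overlap at the locus, so the split between them is an estimate. The gene sum is not free of it, since each row is scaled by its own length before summing.

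**Figure D4:**
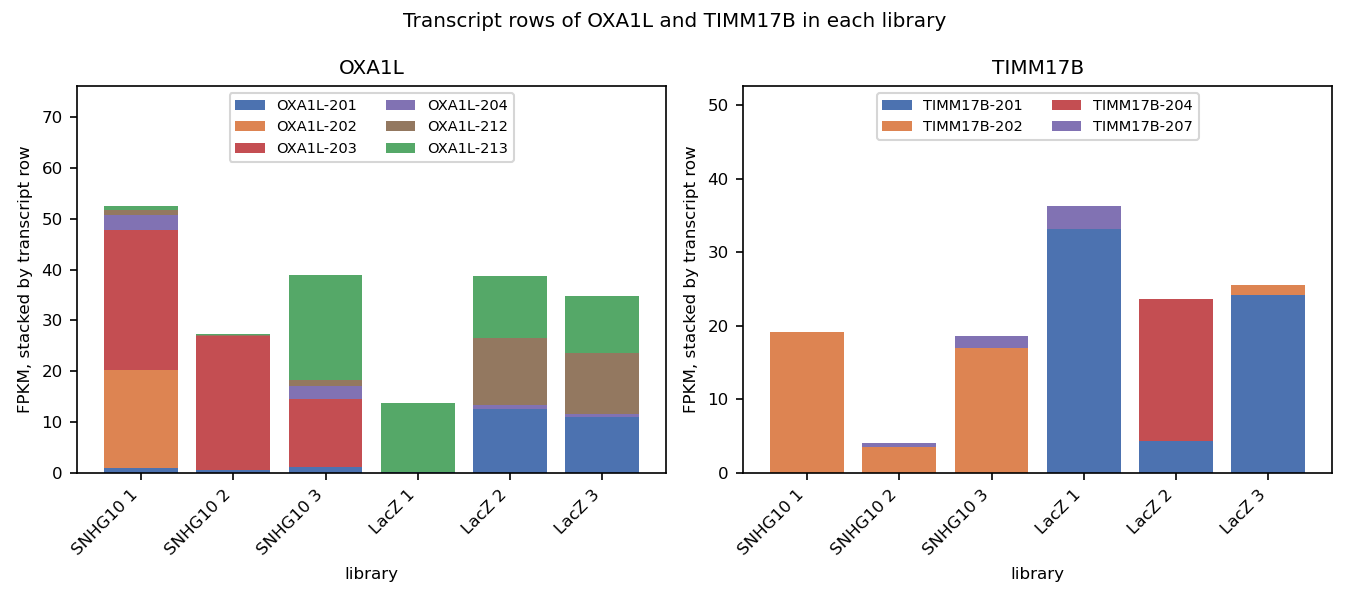
FPKM of the listed transcripts of OXA1L and TIMM17B in each of the 6 libraries, drawn as stacked bars that start at 0. OXA1L-203 is present in the 3 SNHG10 bars and absent from the 3 LacZ bars, and TIMM17B-202 takes nearly all of the SNHG10 bars while other rows take nearly all of the LacZ bars.

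At an unadjusted p under 0.05 there were 6 import rows of 60, against 5.66% of all rows tested, and 10 (16.7%; 4 higher, 6 lower) separated, against 10.5%. Of the 60, 4 passed the level filter in 1 probe set alone (OXA1L-203, DNLZ-201, TIMM17B-201 and TOMM40L-209), so their difference was in part a condition of being tested. TIMM17B showed the same kind of division as OXA1L. TIMM17B-202 had 19.1, 3.52 and 16.9 FPKM with SNHG10 probes and 0, 0 and 1.32 FPKM with LacZ probes (difference 3.15 ± 0.73, limma adjusted p = 0.337). TIMM17B-201 was listed at 0 in all SNHG10 libraries and had 33.2, 4.31 and 24.2 FPKM with LacZ probes (difference -4.05 ± 0.75, limma adjusted p = 0.212). These rows share start and end to within 1 base, and neither passed the adjusted test. In LacZ replicate 2 most of the gene value was a further row, TIMM17B-204, with 19.3 FPKM (81.8%). That row was listed at 0 in every other library. With pseudocounts of 0.1 and 5 the difference of TIMM17B-202 was 5.45 and 1.61, and that of TIMM17B-201 was -7.26 and -2.13. TOMM40L-209 was listed at 0 in all SNHG10 libraries and had 2.07, 2.22 and 1.85 FPKM with LacZ probes (limma adjusted p = 0.243), while TOMM40L-202 was mixed, with 2.00, 1.87 and 0 FPKM against 0, 3.41 and 0 FPKM. DNLZ-201 and TIMM17A-201 are the 1 listed row of their genes and carry the gene values. In rows with an unadjusted p above 0.05, the TIMM9 row at chr14:58875212-58894332, named here after its values were seen, separated with 4.88, 4.90 and 3.59 FPKM against 8.73, 6.68 and 8.29 FPKM, though TIMM9 as a gene did not.

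Transcript division varied within groups as well. Of the 540 values of the 90 rows, 133 (24.6%) were listed at 0. Of the 25 members with several listed rows, 12 (48.0%) had the same leading row in all 6 libraries, against 29.0% of all such genes above 0 in every library. These 12 had 2 or 3 listed rows each, and no member with 4 or more rows kept its leading row. The share over all genes was not matched for row number or level, so the 2 shares are not a like comparison. No member had 1 leading row in all SNHG10 libraries and another in all LacZ libraries, a pattern found in 44 genes (0.691%). The median SD within a probe set, on log2(FPKM + 1), was 0.37 for member genes and 0.58 for their rows, beside 0.40 and 0.70 for all genes and rows tested.

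Other genes of the route likewise gave no call. Of 62 symbols on 7 further lists, some of them older and newer names of the same gene, 57 were tested. None passed limma after adjustment. An unadjusted p under 0.05 was found for 4, against 5.42% of all genes tested, and 4 (7.02%) separated, against 11.4%. There were 18 positive and 39 negative differences with a median of -0.10, beside 4458 and 5846 with a median of -0.05 over all genes tested, or 25 and 32 after median-ratio scaling. PHB2, a ring-forming scaffold that holds inner membrane proteases, had 99.2, 125.9 and 124.8 FPKM with SNHG10 probes and 81.5, 79.8 and 76.8 FPKM with LacZ probes. All SNHG10 libraries were higher (difference 0.54 ± 0.13, limma adjusted p = 0.858). IMMP2L, a catalytic subunit of the inner membrane peptidase, was lower in all, with 0.572, 2.59 and 3.50 FPKM against 6.18, 6.33 and 12.0 FPKM (difference -1.58 ± 0.48, limma adjusted p = 0.885).

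ROMO1, a small inner membrane protein tied to TIM23 assembly, had 64.7, 82.9 and 73.2 FPKM against 65.2, 47.3 and 25.7 FPKM. VDAC2, a metabolite channel of the outer membrane built by SAM, had 54.8, 35.0 and 44.5 FPKM against 78.2, 60.0 and 53.7 FPKM. Each of these 2 overlapped in 1 pair of libraries, with differences of 0.75 ± 0.31 and -0.51 ± 0.21 (limma adjusted p = 0.885 for each). The other separated genes, COX18, which inserts a respiratory chain subunit, and DNAJB1, a cytosolic co-chaperone, are named after their values were seen. COX18 had 1.248, 0.429 and 0.93 FPKM against 1.72, 4.50 and 1.36 FPKM (difference -0.84 ± 0.44, limma adjusted p = 0.907), and DNAJB1 had 97.4, 94.9 and 98.8 FPKM against 109.3, 108.8 and 102.1 FPKM (difference -0.14 ± 0.11, limma adjusted p = 0.928). Both were lower in every SNHG10 library, DNAJB1 no longer after median-ratio scaling. With that scaling ROMO1 did separate, higher with SNHG10 probes. Lists without a gene at p under 0.05 are also described by their most abundant gene: MTCH1, an outer membrane insertase, at 66.1 to 74.3 and 66.6 to 76.1 FPKM, IMMT, the core of the cristae-organising complex MICOS, at 25.6 to 27.6 and 24.2 to 33.5 FPKM, HSP90AB1, a cytosolic chaperone that delivers precursors, at 457.5 to 512.8 and 457.5 to 483 FPKM, and CHCHD2, a twin-cysteine protein of the intermembrane space, at 180 to 222.2 and 161.1 to 186 FPKM. All 4 overlapped between probe sets, though CHCHD2 separated after median-ratio scaling, higher with SNHG10 probes.

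**Figure D5:**
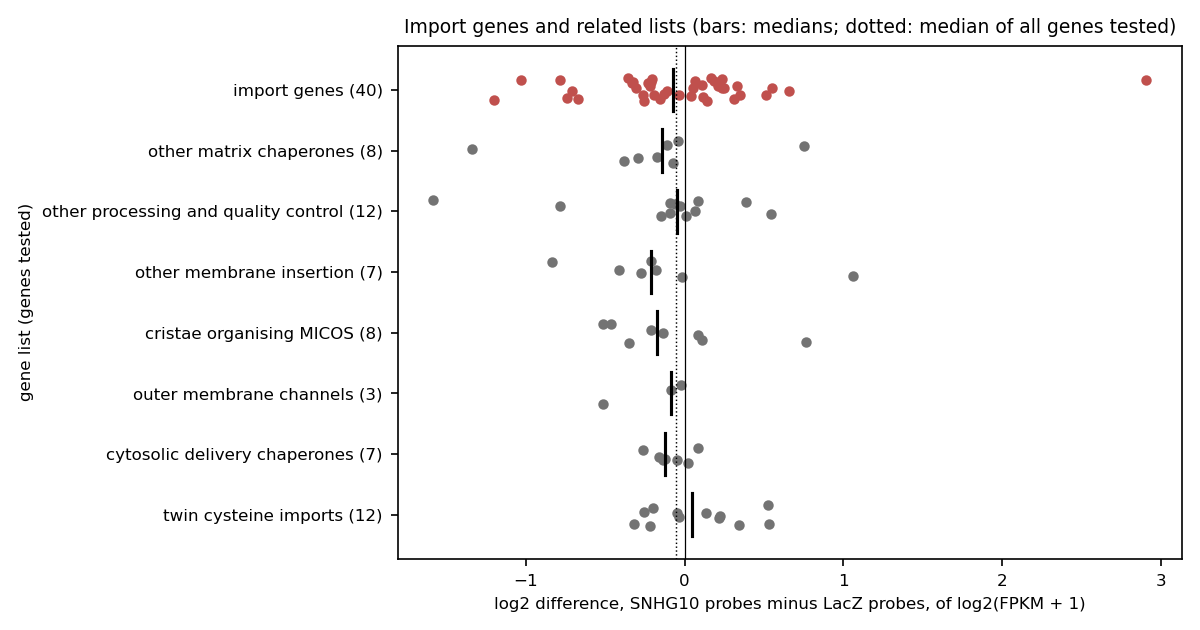
Log2(FPKM + 1) difference of each of the 40 import genes and of the 57 tested genes of 7 further lists, with the median of each list as a bar and that of all genes tested as a dotted line. The import genes lie on both sides of 0, and no point passed limma after adjustment over 10304 genes.

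The libraries as a whole had FPKM totals of 268794 to 277118, and the read depth behind them is unknown. Of the marker lists, 2 of 10 hepatocyte genes were listed (SERPINA1 and CPS1) with a sum of 1.04 to 2.12 FPKM, and the other 8 were not analysed here. Mesenchymal genes (4 of 5 listed) summed to 1361 to 1684 and 1452 to 2054 FPKM, simple epithelial genes (3 of 5) to 1818 to 2070 and 2007 to 2116 FPKM, endothelial genes (2 of 7) to 40.5 to 50.1 and 44.7 to 60.6 FPKM, and leukocyte genes (2 of 4) to 36.8 to 56.1 and 43.1 to 56.5 FPKM with SNHG10 and LacZ probes. These sums overlapped, but 4 of the 13 listed markers were lower in every SNHG10 library and none was higher in every one. Over all genes tested, 7.21% were lower and 4.22% higher in every SNHG10 library. EGFL7, an endothelial gene, had 7.45 to 8.30 FPKM with SNHG10 probes and 14.0 to 26.0 FPKM with LacZ probes, a ratio of the means of 0.407. KRT8 had 465.5 to 549 and 588.7 to 633.1 FPKM, CAV1 361.4 to 391.8 and 394 to 413.5 FPKM, and CPS1 0.505 to 0.796 and 0.883 to 1.53 FPKM. The CAV1 groups nearly touched, and CPS1 was close to the floor. The markers were not filtered by level, and CPS1 and SERPINA1 did not reach 1 FPKM in 3 libraries. These 2 are therefore not among the genes tested. The direction of these 4 markers is that of 5 of the 8 separated import genes. The part of these markers in the import gene values was not tested. SNHG10 itself was not analysed here, so retrieval of the probe target was not checked.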

How the data were processed

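RNA of 6 libraries from SK-Hep1 cells was analysed, 3 with SNHG10 probes and 3 with LacZ probes, grouped by the labels. The authors deposited an FPKM value for each transcript, as the file headers state. The submitters' processing notes name Bowtie2 2.1.0 and the hg19 build, and which program estimated the FPKM is not given in the sources used here. Depth is unknown, so no counting interval was computed. Rows were summed per gene. Genes and rows that reached 1 FPKM in at least 3 libraries were fitted across all features with limma 3.58.1 in R 4.3.3 (lmFit, eBayes with trend), using log2(FPKM + 1) values and a Benjamini-Hochberg threshold of 0.05, after checks on simulated data. Alternatives were other filters, scalings, pseudocounts (0.1 and 5), moderation, a replicate block and each library left out; a filter on a mean of 1 FPKM was added after seeing the data. All members were named. Full values were given for separated members, those with p under 0.05 as gene or row, the most abundant of each role and those under 1 FPKM in any library; in other lists for genes with p under 0.05 or else the most abundant. For lists, genes and tests, earlier results of these data were known when they were chosen. Tables and plots were made with Python 3.11.15, pandas 2.3.3, scipy 1.17.1 and matplotlib 3.10.9.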

Additional observations from a re-analysis of the deposited data

How the results depend on the processing

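No import gene passed the adjusted test under any of the 16 alternatives. The count of called import transcripts, 1 as reported (OXA1L-203), was 0 with a filter of 5 FPKM, with no filter, with a pseudocount of 0.1, with a pseudocount of 5 and with a replicate block, and it ran from 0 to 0 when each library was left out. The adjusted p of OXA1L-203 was then 0.0769, 0.0528, 0.0699, 0.0901 and 0.598, and 0.11 to 0.2 without a library. It stayed called with median-ratio scaling, quantile normalization, no trend, robust moderation and the mean filter. The labels share replicate numbers, but deviations of same-numbered libraries correlated at only 0.0151, 0.0121 and 0.0161, so they were not taken to pair libraries. Each library did correlate best with its own number, beside -0.0243 to 0.0085 for other pairs. Whether that order differs from a random one was not tested. Import rows held no other call for the replicate block to change; over all rows tested the calls went from 15 to 0 with it (smallest adjusted p = 0.545, limma), and also to 0 with any library left out. Of 392 alternative values of single genes and rows, 371 kept direction and side of the threshold, 11 (all OXA1L-203) were no longer past it and 10 changed sign. With each library left out, sign changes gave ranges of -0.333 to 0.0529 for SAMM50, -0.26 to 0.51 for TIMM21, -0.0345 to 0.30 for TIMM22, -0.20 to 0.17 for TIMMDC1, -0.56 to 0.15 for TOMM40L and -0.0344 to 1.04 for TOMM40L-202. Without a sign change, the difference ran from 0.05 to 0.44 for TOMM7, -0.27 to -0.11 for TOMM34, -0.56 to -0.11 for PAM16 and -0.48 to -0.01 for PMPCA. The count of separated genes was 8, and 7 with the filter of 5 FPKM, which DNLZ did not pass; it was not recomputed without single libraries. Depth is unknown, and values near 0 may be failed estimates.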
